A study of Ovis aries with 32 samples.

Results

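Ribosomal proteins and translation factors were followed in the hearts of 14-day-old lambs through every array probe whose gene name begins with RPL or RPS and a digit, with RPLP or RPSA, or with EEF or EIF and a digit. The rule took 21 of the 15008 sheep probes on the array, 15 for 8 ribosomal protein genes and 6 for 4 translation factor genes. The ribosomal protein genes were RPL4, RPL6, RPL10, RPL13A, RPL14, RPS20, RPS25 and RPS27A, and the translation factor genes were EEF1A1, EEF1E1, EIF1AX and EIF4GI. RefSeq lists 154 protein coding sheep symbols that the same rule takes, so the array samples only a small part of the machinery by name. It lists 11 of the 12 gene names as symbols. EIF4GI is an older spelling of EIF4G1.

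The lambs were born to ewes that received a cortisol infusion of 0.5 mg/kg/day from gestation day 115 until delivery (CORT) or no infusion (Control). According to the methods, a timer limited the infusion to the hours from evening to morning of each day. The left ventricular free wall (LV) and the interventricular septum (IVS) were each sampled in 8 Control and 8 CORT lambs, giving 32 arrays with 1 sample on each. Both groups were normal lambs without a transgene or deletion, left with the ewe after birth, and the infusion had ended at delivery. The labels give no sex and number the lambs within a group, and the study's methods state that some lambs of a group were twins, so p-values treat lambs of 1 ewe as independent. Some lambs of infused ewes were stillborn according to the methods, so the CORT group holds survivors. The arrays were scanned on 5 slides, LV on slides 1 and 2 and IVS on slides 3, 4 and 5, each of which held both treatment groups.

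The median raw intensity of an array was between 139 and 217 in LV and between 131 and 332 in IVS, and 59.96% to 77.83% of spots in LV and 67.28% to 80.59% in IVS were well above background. Of the cell type markers looked up, none of the 18 cardiomyocyte, 3 atrial or 3 conduction genes is a gene name on this array. The 2 probes described as myoglobin, the oxygen-binding protein of cardiac and skeletal muscle, were well above background on all 32 arrays, at log2 intensities of 17.3 to 18.6. In tissue pieces of this kind, fewer cells of a type and less RNA per cell cannot be told apart.

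A ribosome is built from ribosomal RNA and a set of ribosomal proteins, named L for the large and S for the small subunit. Initiation factors (EIF) bring the small subunit to the capped end of a messenger RNA and find the start codon, and elongation factors (EEF) deliver charged transfer RNAs and move the ribosome along. Growth of the heart around birth needs this machinery, and the messenger RNAs of ribosomal proteins and elongation factors are known for being controlled together through nutrient and growth signals.

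The probes are single strands of 60 bases, given here from the scanner files and read from left to right as 5′ to 3′. The 2 EEF1A1 probes are shown first because their orientation bears on their signal. Capitals mark the 14 bases that they share.

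EEF1A1 A_70_P012927: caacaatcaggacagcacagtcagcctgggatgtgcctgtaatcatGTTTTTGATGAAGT
EEF1A1 A_70_P012926: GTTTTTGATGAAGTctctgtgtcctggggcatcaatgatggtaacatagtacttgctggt
LOC100125610 A_70_P024461: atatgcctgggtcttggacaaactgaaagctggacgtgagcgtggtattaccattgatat

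EEF1A1 encodes the elongation factor that carries charged transfer RNAs to the ribosome. Read through the genetic code, the reverse complement of probe A_70_P012926 holds a GTP-binding motif of this protein, and the strand on the array holds it in no frame. The overlap puts probe A_70_P012927 on the same strand. The third probe is 1 of 3 whose description, but not gene name, is elongation factor 1 alpha. All 3 of these read the protein on the strand printed. In the usual layout of such arrays the probe has the sense strand, since labelled copies of messenger RNA are antisense. Whether the EEF1A1 probes measured EEF1A1 messenger RNA was not tested.

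The probes of EIF4GI and RPL13A carry the differences described first, and those of RPS25 are given because they lie in different parts of 1 transcript. Capitals mark AATAAA, a polyadenylation signal, near the right end of the first RPS25 probe. AATAAA stands on the printed strand of 845 of the 15008 probes (5.63%), including the RPL13A probe, where it is not capitalised. The run alone does not mark a polyadenylation signal, and in the RPL13A probe it was not shown to be one.

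EIF4GI A_70_P031206: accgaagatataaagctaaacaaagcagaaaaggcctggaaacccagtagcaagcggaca
RPL13A A_70_P030566: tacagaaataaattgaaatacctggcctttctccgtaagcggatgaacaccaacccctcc
RPS25 A_70_P051256: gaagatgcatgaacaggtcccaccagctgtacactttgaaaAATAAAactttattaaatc
RPS25 A_70_P051257: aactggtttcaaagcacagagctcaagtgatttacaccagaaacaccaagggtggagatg

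Several other genes have probes that are almost the same. The paired probes of RPL14, RPS27A and EEF1E1 and 2 of the 3 RPL10 probes overlap by 59 of 60 bases, and the third RPL10 probe shares 43 or 42 bases with them. Such probes repeat a measurement rather than add a gene. No other probe on the array shares a run of 18 bases with a member on either strand. Ribosomal protein genes have many near-identical processed copies in mammalian genomes, and signal from these was not separated.

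Of the 21 probes, 19 were bright enough to be tested in each tissue, and these 19 were well above background on all 32 arrays with no saturated spot. EIF4GI was the dimmest of the 19, with raw intensities between 136.1 and 475.4. The 2 that were not tested, RPS25 A_70_P014906 and A_70_P014907, come from an expressed sequence tag, whereas the other RPS25 probes come from a reference messenger RNA, and were well above background on 0 of 32 arrays, with raw intensities between 46.6 and 95.4. Levels are given as log2 of background-corrected, quantile-normalised intensity. They can be compared between arrays for 1 probe and not between probes.

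EIF4GI was lower in CORT lambs in both tissues, and it was the single member probe of 19 below an unadjusted p of 0.05 in LV. EIF4G1 is the scaffold that holds the cap-binding protein, a helicase and the poly(A)-binding protein together at the start of translation. In LV, the lowest, median and highest log2 intensities were 7.57, 7.74 and 7.92 in Control and 7.31, 7.51 and 7.81 in CORT. Of the 8 CORT lambs, 7 lay below the Control mean, and the groups overlapped. The difference was -0.22 (SE 0.07, 95% interval -0.38 to -0.06), a 0.859-fold level, with p = 0.00898 in limma, a Benjamini-Hochberg adjusted p of 0.999 and p = 0.0127 in an exact permutation test over the 12870 assignments of 16 arrays. Within slide 1 the difference was -0.17 and within slide 2 it was -0.27. The size of the LV difference depended on the processing. It was -0.309 without the offset in background correction, -0.389 with processed signals scaled to the 75th percentile and -0.204 with cyclic loess. Over all tested probes 3.86% had a limma p under 0.05 in LV with 2.2% lower and 1.66% higher in CORT, and 1 of 19 members (5.26%) was lower and 0 higher. No probe of 11517 passed the adjusted threshold in limma, against 444 at an unadjusted p under 0.05.

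In IVS, the lowest, median and highest EIF4GI log2 intensities were 8.12, 8.27 and 8.55 in Control and 7.90, 8.10 and 8.36 in CORT. Again 7 of 8 CORT lambs lay below the Control mean and the groups overlapped. The difference was -0.20 (SE 0.08, 95% interval -0.37 to -0.02), with p = 0.0298 in limma, an adjusted p of 0.993 and an exact permutation p = 0.0219. It was -0.20, -0.19 and -0.13 within slides 3, 4 and 5. Without the offset in background correction it was -0.242, and with processed signals scaled to the 75th percentile -0.305. The difference was -0.153 with cyclic loess in place of quantile normalisation, -0.195 without slide 3 and -0.166 without Control lamb 3, and none of the 3 was past the unadjusted threshold in limma (adjusted p = 0.99, 1.0 and 1.0). The difference between the tissues in the effect of cortisol was 0.05 (SE 0.09, 95% interval -0.13 to 0.22, adjusted p = 0.999 in limma).

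**Figure D1:**
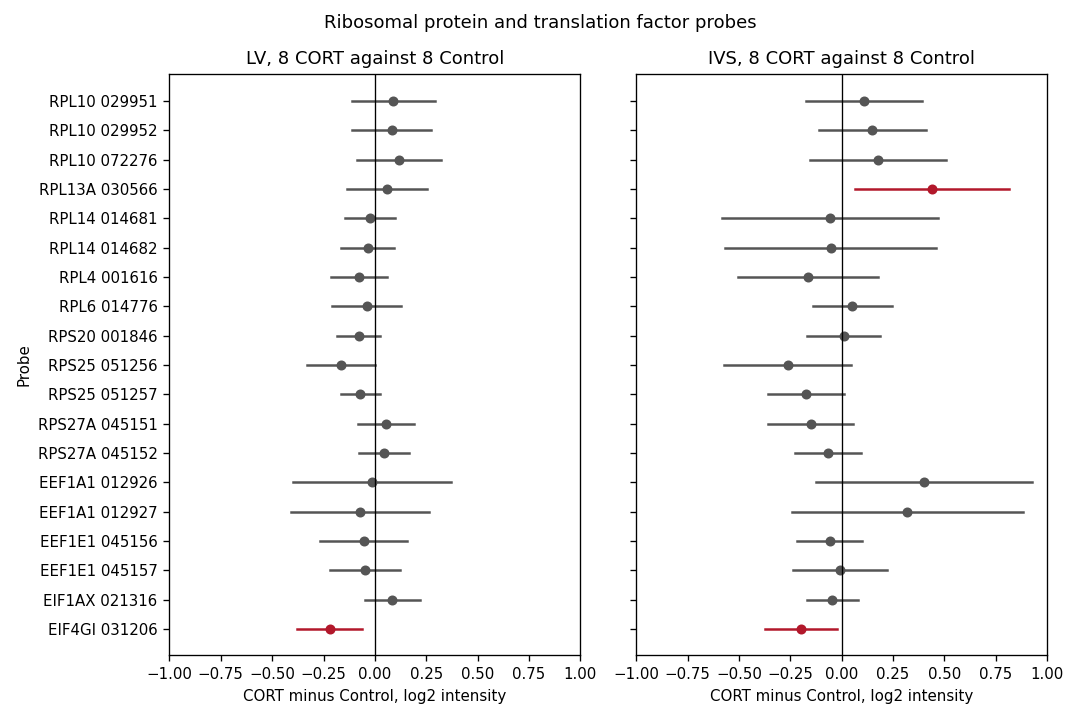
Difference between CORT and Control in log2 intensity (x axis) for each of the 19 tested probes (y axis, gene and last digits of the probe name), in LV and IVS, with 8 lambs per group. Points are limma estimates, bars are 95% intervals and red marks an unadjusted p under 0.05, which EIF4GI reached in both tissues and RPL13A in IVS.

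RPL13A was higher in the IVS of CORT lambs. RPL13A belongs to the large subunit and is also known for repressing selected messenger RNAs once released from the ribosome. The Control arrays read 13.91, 13.83, 14.63, 15.10, 15.07, 14.97, 14.81 and 14.60 for lambs 1 to 8, and the CORT arrays 14.82, 14.77, 14.86, 15.29, 15.17, 15.17, 15.22 and 15.13. Control lambs 1 and 2, both on slide 3, were the lowest of the 16, and every CORT lamb was above the Control mean while the ranges overlapped. The difference was 0.44 (SE 0.18, 95% interval 0.07 to 0.81), 1.36-fold, with p = 0.024 in limma, an adjusted p of 0.993 and an exact permutation p = 0.0284. The 2 of 19 members under an unadjusted p of 0.05 in IVS (10.5%) stand against 3.59% of all 11687 probes tested. By direction, 1 member was lower, against 2.19% of all probes, and 1 was higher, against 1.39%. Of the 419 probes past the unadjusted threshold, 0 passed the adjusted one in limma. The difference was 0.93 within slide 3, 0.14 within slide 4 and 0.38 within slide 5. Without slide 3 it was 0.28 and with the slide as a block 0.45, both past the unadjusted threshold in limma (adjusted p = 1.0 and adjusted p = 0.638).

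In LV the same RPL13A probe read 14.92, 15.15 and 15.49 (lowest, median and highest) in Control and 15.04, 15.28 and 15.41 in CORT. The difference was 0.06 (SE 0.09, 95% interval -0.14 to 0.25, exact permutation p = 0.555), and it took the opposite sign, -0.03, with cyclic loess in place of quantile normalisation. The effect of cortisol in IVS exceeded that in LV by 0.41 (SE 0.17, adjusted p = 0.999 in limma). RPL13A was the single member of 19 (5.26%) under an unadjusted p of 0.05 for this difference between tissues, against 3.75% of 12343 probes.

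The EEF1A1 probes had the widest spread of the members. In LV their within-group SD was 0.397 and 0.348, and in IVS 0.543 and 0.581, against medians over all tested probes of 0.163 in LV and 0.244 in IVS. The RPL14 probes came close in IVS, at 0.542 and 0.531, and had 0.107 and 0.115 in LV. In LV, probe A_70_P012926 read 10.56, 11.08 and 11.61 (lowest, median, highest) in Control and 10.55, 10.93 and 11.93 in CORT, a difference of -0.01 (SE 0.18, 95% interval -0.40 to 0.37, exact permutation p = 0.95). The near-zero difference in LV was made of 0.47 within slide 1 and -0.50 within slide 2. Probe A_70_P012927 read 10.18, 10.72 and 11.22 in Control and 10.23, 10.57 and 11.36 in CORT, a difference of -0.07 (SE 0.16, 95% interval -0.41 to 0.27, exact permutation p = 0.681).

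In IVS the Control arrays of probe A_70_P012926 read 10.13, 9.90, 9.71, 11.31, 11.24, 11.04, 10.98 and 11.67 for lambs 1 to 8, and the CORT arrays ran from 10.90 to 11.51. Control lambs 1, 2 and 3 lay more than 0.7 below every other array, and the remaining Control lambs were within or above the CORT range. Probe A_70_P012927 had the same 3 arrays lowest, at 9.27, 9.17 and 9.51, with CORT arrays from 10.31 to 10.96. The differences of 0.40 (SE 0.25, 95% interval -0.13 to 0.93, exact permutation p = 0.166) and 0.32 (SE 0.27, 95% interval -0.24 to 0.88, exact permutation p = 0.27) were not beyond the spread between lambs. They were 1.35 and 1.22 within slide 3, 0.46 and 0.24 within slide 4, and -0.22 and -0.19 within slide 5. Without slide 3 they were 0.08 and 0.02.

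The probes described as elongation factor 1 alpha moved the other way on these arrays. For LOC100125610 A_70_P024461, Control lambs 1, 2 and 3 read 15.03, 15.08 and 15.40 in IVS, and the other 5 Control arrays lay between 12.80 and 13.69 and the 8 CORT arrays between 12.40 and 13.81. Its own IVS difference was -0.68 (SE 0.37, 95% interval -1.46 to 0.09, exact permutation p = 0.123), where the EEF1A1 probes were positive. The study lists EEF1A1 among the genes lower in the IVS of CORT lambs, opposite to the EEF1A1 probes here. Since 3 arrays stand apart in IVS, no pooled correlation is given there. Over the other 11 arrays without slide 3 and Control lamb 3, Pearson's r between an EEF1A1 probe and a described probe was -0.41 to -0.24 and Spearman's rho -0.41 to -0.22 over 6 pairs (permutation p 0.211 to 0.521, adjusted p 0.472 to 0.521), and r was -0.19 to 0.24 without the 2 farthest arrays. In LV, over 16 arrays and 6 pairs, r was -0.56 to -0.47 (permutation p 0.0219 to 0.0699, adjusted p 0.056 to 0.0699) and rho -0.46 to -0.38 (permutation p 0.0732 to 0.142, adjusted p 0.142). Leaving out the 2 arrays farthest from the median gave r of -0.60 to -0.25. These pairs were chosen after their values were seen.

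**Figure D2:**
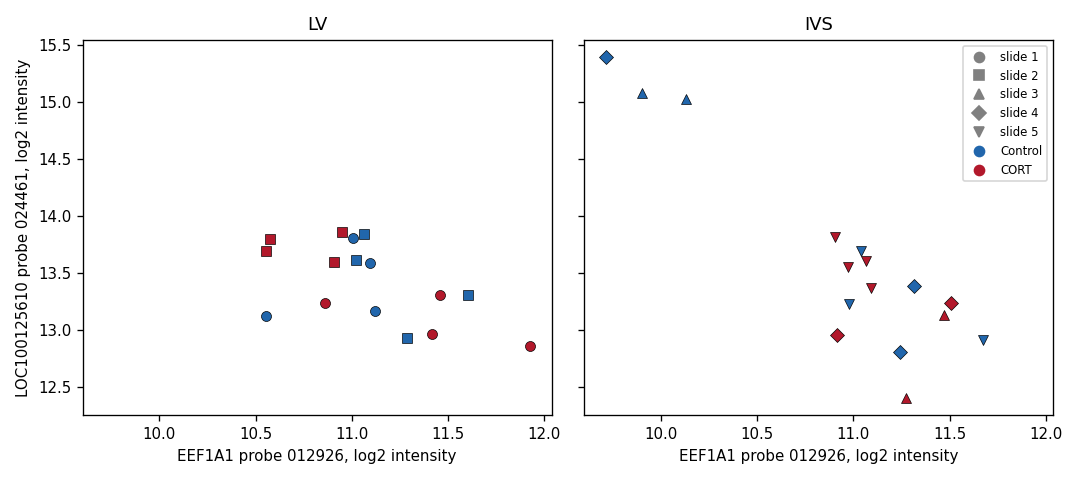
Log2 intensity of LOC100125610 A_70_P024461 (y axis) against EEF1A1 A_70_P012926 (x axis), 1 point per array, in LV and IVS, with colour for treatment and shape for slide. Control lambs 1, 2 and 3 form the upper left corner of the IVS panel, at 9.71 to 10.13 on the x axis and 15.03 to 15.40 on the y axis.

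RPS25, a small-subunit protein known for its part in translation from internal entry sites, gave levels below the Control mean in all 8 CORT lambs of both tissues on the probe next to the polyadenylation signal (A_70_P051256). In LV that probe read 16.10, 16.30 and 16.74 (lowest, median, highest) in Control and 16.15, 16.19 and 16.23 in CORT, a difference of -0.17 (SE 0.08, 95% interval -0.33 to 0.0004, exact permutation p = 0.053). It was -0.34 within slide 1 and 0.01 within slide 2, and with the slide as a block it was past the unadjusted threshold in limma (adjusted p = 0.995). In IVS it read 16.05, 16.54 and 17.10 in Control and 16, 16.25 and 16.50 in CORT, a difference of -0.26 (SE 0.15, 95% interval -0.57 to 0.05, exact permutation p = 0.112). It was -0.21 with the slide as a block, past the unadjusted threshold in limma (adjusted p = 0.638), and -0.03 both within slide 5 and with processed signals scaled to the 75th percentile.

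The coding probe of RPS25 (A_70_P051257) differed by -0.07 in LV (SE 0.045, exact permutation p = 0.0578) and by -0.17 in IVS (SE 0.09, exact permutation p = 0.0402). The IVS difference turned to 0.07 with processed signals scaled to the 75th percentile. Within an array, the polyadenylation-signal probe minus the coding probe was 0.01 ± 0.16 (SD, n = 8) on slide 1 and -0.09 ± 0.06 (SD, n = 8) on slide 2. It was 0.54 ± 0.20 (SD, n = 4), 0.32 ± 0.12 (SD, n = 5) and 0.09 ± 0.07 (SD, n = 7) on slides 3, 4 and 5. The 4 arrays of slide 3 ran from 0.31 to 0.80 and the 7 of slide 5 from -0.05 to 0.18, without overlap. Between treatments this difference was -0.09 in LV (exact permutation p = 0.159) and -0.09 in IVS (exact permutation p = 0.447). In LV the 2 probes correlated across lambs after group means were removed, with r of 0.70 and rho of 0.70 over 16 arrays (permutation p = 0.00138 and 0.00353, adjusted over 16 pairs 0.00147 and 0.00377), and r of 0.61 without the 2 farthest arrays.

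The other ribosomal proteins gave no difference past an unadjusted p of 0.05 in either tissue. RPL10, which takes part in joining the subunits, had the highest difference of the class in LV: A_70_P072276 read 14.12, 14.57 and 14.92 in Control and 14.44, 14.76 and 14.80 in CORT, a difference of 0.12 (SE 0.10, 95% interval -0.09 to 0.32, exact permutation p = 0.266). The other 2 RPL10 probes gave 0.09 and 0.08 in LV, and the 3 gave 0.11 to 0.17 in IVS. RPL4, another large-subunit protein, differed by -0.08 (SE 0.06, exact permutation p = 0.225) in LV and -0.16 (SE 0.16, exact permutation p = 0.404) in IVS. RPS20, a small-subunit protein, differed by -0.08 in LV (SE 0.05, exact permutation p = 0.0833) and 0.01 in IVS, where 2 spots with outlier marks left 7 arrays a group. RPL6, a large-subunit protein, differed by -0.04 and 0.05.

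RPS27A, made as a fusion with ubiquitin, differed by 0.06 and 0.05 in LV and by -0.15 and -0.07 in IVS on its 2 probes, with exact permutation p from 0.132 to 0.401. EIF1AX, which helps the small subunit find the start codon, read 14.12, 14.29 and 14.46 in LV Control and 14.27, 14.35 and 14.53 in LV CORT, a difference of 0.09 (SE 0.06, exact permutation p = 0.172), and differed by -0.05 in IVS. EEF1E1, an auxiliary protein of the complex of transfer RNA synthetases, differed by -0.05 on both probes in LV and by -0.06 and -0.01 in IVS.

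By class, 6 of 13 tested ribosomal protein probes were above and 7 below 0 in LV, with a median difference of -0.02, and the same counts held in IVS with a median of -0.05. Of the 6 translation factor probes 1 was above 0 in LV and 2 in IVS, with medians of -0.05 and -0.03. The medians over all probes tested were 0.001 in LV and -0.01 in IVS. The IVS ribosomal protein median turned to 0.10 with percentile scaling and to 0.06 without Control lamb 3. A further 22 tested probes named as ribosomal proteins or translation factors in their description only had medians of -0.04 in both tissues, with 1 in LV and 0 in IVS under an unadjusted limma p of 0.05 and 0 after adjustment. The 6 of these for translation factors had a median of -0.45 in IVS, and they include the 3 probes described as elongation factor 1 alpha.

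Other genes of the translation machinery and its control gave 9 tested probes for 7 of the 75 genes looked up. In LV 4 of the 9 were lower in CORT at an unadjusted p under 0.05 and 0 higher, against 2.2% of all probes lower. The list was chosen with earlier results of these data known. The study itself lists NARS and DKC1 as lower in LV from these arrays, so this count is not an independent test. The probes share genes: PABPC1, the poly(A)-binding protein that contacts EIF4G1, differed by -0.20 on both its probes (SE 0.08 and 0.09). NARS, asparaginyl-transfer RNA synthetase, differed by -0.21 (SE 0.09) on 1 probe, past the threshold, and by -0.19 (SE 0.09) on the other, which was not. DKC1, which modifies ribosomal RNA, differed by -0.27 (SE 0.12). The list's median was -0.19 in LV and -0.04 in IVS. In IVS 1 of 9 was lower at that threshold, NARS at -0.27 (SE 0.10). PABPC1 differed by -0.23 and -0.25 (SE 0.15 for both) and DKC1 by 0.18 (SE 0.20) there, short of it. The study lists PABPC1 among the genes higher in the IVS of CORT lambs, the opposite direction. AKT1, ATF4, SARS and TPT1 were not past the threshold in either tissue, and adjusted p-values of the 9 were 0.993 or above in limma.

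In LV some markers of other cells were lower too: 2 of 4 fibroblast probes, both for collagen COL3A1 (-0.28 and -0.27), and 1 of 6 leukocyte probes, for CD14 (-0.16), had an unadjusted p under 0.05 in limma. Over all LV probes 2.2% were lower at that threshold, and 0 passed adjustment. Median differences in LV were -0.12 for the fibroblast, -0.13 for the leukocyte and -0.01 for the adipocyte probes. They were 0.36 for the erythrocyte probes, 0.15 for the endothelial probe and 0.44 for the smooth muscle probe. Of the lists, 2 of 7 fibroblast and 3 of 6 leukocyte genes are on the array, and the fibroblast gene DCN differed by 0.02 and 0.08. The summed intensity of the fibroblast probes was 37800 to 67000 in Control and 43100 to 55100 in CORT, and that of the leukocyte probes 705 to 2020 and 826 to 1150. The part of these cells in the EIF4GI and PABPC1 differences was not tested. In IVS 0 of the 4 fibroblast and 0 of the 6 leukocyte probes were past that threshold. None of the 2 erythrocyte, 1 endothelial, 1 smooth muscle or 5 adipocyte probes (4 tested in IVS) was past it in either tissue. The erythrocyte probes summed to 4680 to 114000 in LV Control and 7220 to 91700 in LV CORT.

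The 2 tissues were compared with all 32 arrays normalised together and the slide as a random block. Both were pieces of the hearts of the study's lambs, so they share animals, and the labels number the lambs alike in both without stating that a number is the same lamb. The test and the exact permutations treat the pieces as separate lambs. EIF4GI was higher in IVS than in LV in both groups of lambs. In Control lambs it read 7.62, 7.80 and 7.99 (lowest, median, highest) in LV and 8.06, 8.21 and 8.49 in IVS, with no overlap, which held for 1 of 19 members (5.26%) and 0.551% of all probes. The difference was 0.44 (SE 0.09, 95% interval 0.26 to 0.63), 1.36-fold, with an adjusted p of 0.035 in limma and an exact permutation p of 0.000155. In CORT lambs it read 7.36, 7.57 and 7.88 in LV and 7.84, 8.04 and 8.29 in IVS, with 1 IVS array inside the LV range. The difference was 0.49 (SE 0.09, 95% interval 0.30 to 0.67), 1.40-fold, with an adjusted p of 0.0405 in limma. With the lamb number as a replicate block beside the slide, the EIF4GI difference was 0.44 in Control and 0.47 in CORT lambs, with adjusted p of 0.0766 and 0.076 in limma, and 0 members were called. Without the replicate block EIF4GI was the 1 member of 19 called in each comparison, against 0.154% of 12343 probes in Control and 0.0324% in CORT lambs.

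No slide held both tissues, so slide and tissue cannot be told apart for single arrays. The slide block used a common correlation for all probes, and its tests counted arrays rather than slides. Adjusted p-values with the block therefore take only partial account of slides and can be too small. Among the 23 arrays of slides 1, 2 and 5, which were scanned on the same day, the EIF4GI difference was 0.33 in Control (adjusted p = 0.0515 in limma) and 0.42 in CORT lambs (adjusted p = 0.0262 in limma). This same-day fit had no slide block and all its IVS arrays were on slide 5, so its p-values take no account of slides. It called 431 probes in Control and 45 in CORT lambs, against 19 and 4 with the block. With processed signals scaled to the 75th percentile the EIF4GI difference was 0.60 and 0.72 with adjusted p of 0.125 and 0.195 in limma, and over all the alternatives the adjusted p ran from 0.0022 to 0.142 in Control and from 0.00292 to 0.195 in CORT lambs.

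**Figure D3:**
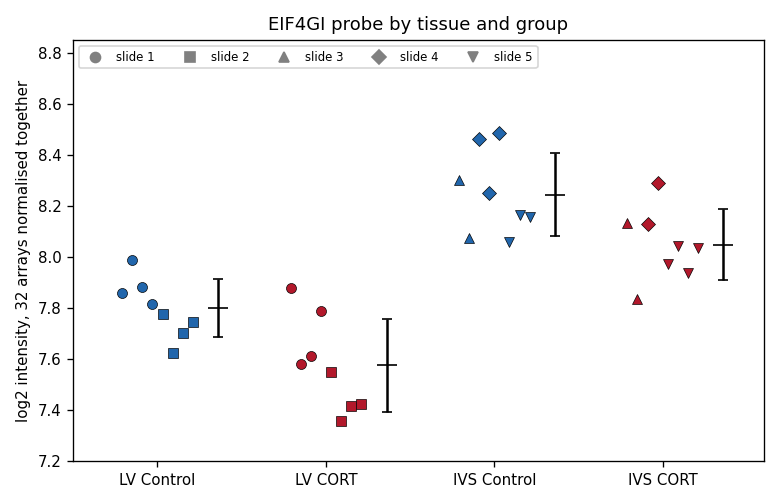
Log2 intensity of the EIF4GI probe (y axis, 32 arrays normalised together) by tissue and treatment group (x axis), 1 point per lamb with shape for slide. Bars give the mean and SD of 8 lambs. IVS Control arrays lie at 8.06 to 8.49, above all LV Control arrays at 7.62 to 7.99, and in each tissue the CORT mean lies below the Control mean.

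At an unadjusted p under 0.05, 6 of 19 members (31.6%) differed between the tissues in Control lambs, against 12.5% of all probes, and 2 of 19 (10.5%) in CORT lambs, against 6.47%. The 6 were EIF4GI, RPL13A (-0.56, exact permutation p = 0.011), both RPS27A probes (0.25 and 0.26, exact permutation p = 0.000622 and 0.00389), the RPS25 probe at the polyadenylation signal (0.34, exact permutation p = 0.0656) and EEF1A1 A_70_P012927 (-0.69, exact permutation p = 0.0567). The permutations took no account of slides, and the adjusted p-values of the 5 besides EIF4GI were 0.157 to 0.346 in limma. The 2 in CORT lambs were EIF4GI and RPL6 (0.28, exact permutation p = 0.00668, adjusted p = 0.743 in limma). Among arrays scanned the same day, fitted without a slide block, the RPL13A difference in Control lambs was -0.34 (adjusted p = 0.103 in limma), that of the RPS25 probe -0.09 (adjusted p = 0.644 in limma) and that of EEF1A1 -0.12 (adjusted p = 0.793 in limma). Those of the RPS27A probes were 0.15 and 0.11 (adjusted p = 0.272 and 0.48 in limma). The coding probe of RPS25, at 0.01 over all arrays, was -0.20 in Control lambs on the same-day arrays with an adjusted p of 0.0476 in limma, again without a slide block.

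Several members differed between slides within IVS. Slide 3 held 2 Control and 2 CORT lambs, was scanned on a day of its own and had median intensities of 199 to 332, against 131 to 249 on slides 4 and 5. With treatment in the model, 8 of 19 member probes were lower on slide 3 than on slides 4 and 5 at an adjusted p under 0.05 in limma and 0 were higher. Of the 22 further ribosomal protein and translation factor probes 4 were lower and 3 higher. Over all 11687 probes 27.6% passed, 1678 lower and 1544 higher. The 8 probes stand for 5 genes: RPL10 with 3, RPL14 with 2, and RPL13A, EEF1A1 and EEF1E1 with 1 each.

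RPL14, a large-subunit protein, showed the widest gap: A_70_P014681 read 13.92 to 14.09 on the 4 arrays of slide 3 and 14.85 to 15.63 on the other 12. The difference was -1.10 (SE 0.11, adjusted p = 1.11e-06 in limma), and its second probe gave -1.07. In LV the same probe ran from 14.80 to 15.18 over 16 arrays. Its difference between treatments in IVS was -0.06 (SE 0.25, 95% interval -0.58 to 0.47). RPL13A differed by -0.67 on slide 3 ( SE 0.13, adjusted p = 0.000859 in limma), and the 3 RPL10 probes gave -0.38, -0.44 and -0.62. EIF4GI gave -0.08 (SE 0.09, adjusted p = 0.561 in limma). The study's methods give a range of RNA integrity numbers for each tissue, without values per sample or slide. RNA quality per sample is not in the files used here, and its part in these differences was not tested.

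**Figure D4:**
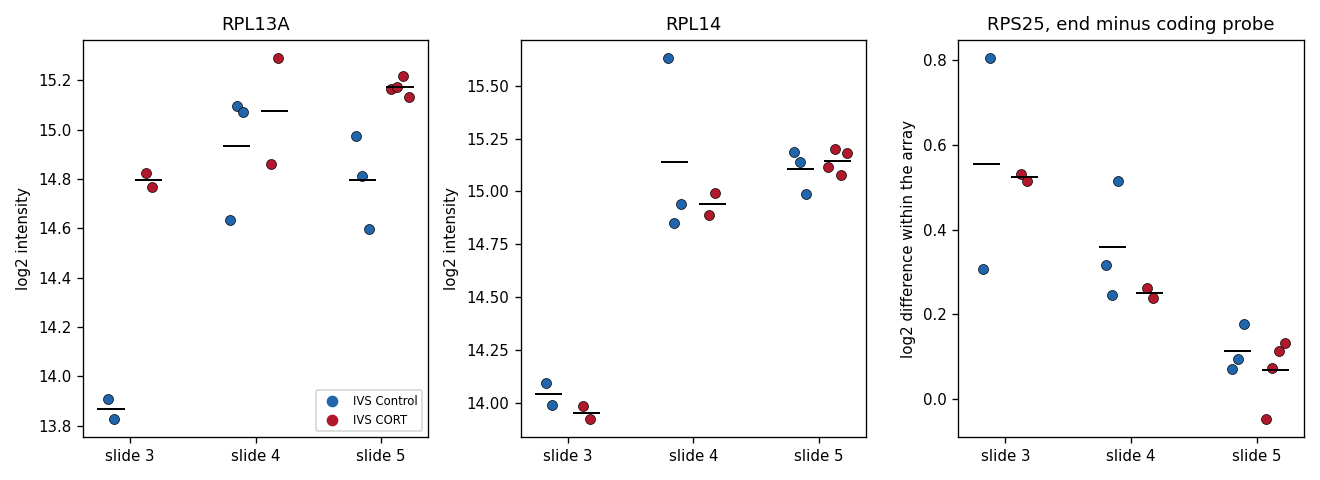
IVS arrays by slide (x axis), with blue for Control and red for CORT lambs and a black line at the mean of each. The panels show log2 intensity of RPL13A and of RPL14 (A_70_P014681), and the within-array log2 difference between the polyadenylation-signal and coding probes of RPS25. RPL14 is at 13.92 to 14.09 on slide 3 and at 14.85 or above elsewhere.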

How the data were processed

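Total RNA of 32 heart samples was hybridised to 1-colour Agilent sheep arrays, 1 sample per array. The labels give Cy3 and the study's methods Cy5. Per the file headers, Agilent Feature Extraction 10.1.1.1 gave the deposited spot intensity (mean, local background and processed signal). The authors also deposited log2 matrices made with limma (background correction, quantile normalisation, dim probes removed), used here as an alternative. Mean intensities were corrected with normexp (offset 50), quantile normalised within a tissue, or over all 32 arrays to compare tissues, and spots with outlier marks were set aside. A probe was tested when over 1.1 times the 95th percentile of 77 negative control spots on at least 8 arrays, which left 11517 probes in LV, 11687 in IVS and 12343 over all arrays. Tests were two-sided in limma 3.58.1 (R 4.3.3) with Benjamini-Hochberg adjustment over all tested probes. Slide was a random block between tissues, except in the alternative without a block and on the same-day arrays. Single probes were also given an exact two-sided permutation test (Python 3.11.15, numpy 2.4.6) and correlations 100000 permutations, whose smallest p is 1e-05. On simulated data 98% of LV and 90% of IVS probes changed by 0.5 log2 had p under 0.05, and 84% and 57% passed adjustment. The shares passing adjustment depend on how many probes were changed in the simulation, which need not match the data. The simulated noise was independent between probes and arrays and held no slide effects. Changes smaller than 0.5 were not simulated.

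Every member is accounted for. Group levels were given for EEF1A1, for members with p under 0.05 between treatments, for genes the study lists and for some of the highest and lowest differences per class. The other members were mostly given as differences between groups. Members and gene lists were chosen with earlier results of these data known. Lambs with the same number were not treated as pairs, except in the replicate block alternative, although LV and IVS came from the hearts of the same study animals. The number of arrays limits the precision. Promoter and protein sequences were not used here.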

Additional observations from a re-analysis of the deposited data

Results flagged for a closer look

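RPL4 in IVS Control lamb 3 read 14.37, whereas the other 7 Control lambs lay between 12.89 and 13.46, a gap of 0.612 of the group's range and above Dixon's 95% limit for 8 samples. It was 1 of 76 groups of lambs tested in this way, and about 1 in 20 is reached by chance. The same array had the highest RPL14 log2 intensity of IVS, 15.63, and the lowest of EEF1A1 A_70_P012926, 9.71. RPL13A differed between the tissues in its response to cortisol, the IVS difference exceeding the LV difference by 0.41 on the log2 scale (adjusted p = 0.999 in limma, past the unadjusted threshold). Without the slide as a block this difference was 0.40 and not past it.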

How the results depend on the processing

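For the treatment comparisons 10 alternatives were planned and for the tissue comparisons 6. The same-day arrays, the arrays without slide 3 or Control lamb 3, and the further described probes were added after the data were seen. EIF4GI in LV (-0.39 to -0.20) and RPL13A in IVS (0.28 to 0.53) kept their direction and an unadjusted limma p under 0.05 in all 10 and 12 alternatives. The number of members lower in LV at that threshold was 2 in place of 1 without the filter on dim probes, with the slide as a block and with the further probes. In IVS it was 0 with cyclic loess, without slide 3 and without Control lamb 3 (EIF4GI lost), and 2 with the slide as a block and with the replicate block. The IVS ribosomal protein median was 0.0973 with percentile scaling, 0.0461 with arrays weighted by quality and 0.0552 without Control lamb 3. Signs turned for EEF1A1 A_70_P012926 in LV (0.011, cyclic loess), RPL13A in LV (-0.0271, cyclic loess) and the RPS25 coding probe in IVS (0.0671, percentile scaling). Members called between tissues in Control lambs numbered 3 without a block and 0 with percentile scaling, cyclic loess or the replicate block. In CORT lambs 0 were called with percentile scaling or the replicate block. Members past the unadjusted threshold in the interaction numbered 0 without a block or with percentile scaling and 2 on same-day arrays. The cause was not tested.

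Over all probes, those past the unadjusted threshold in IVS numbered 879 with the slide as a block, 639 with the replicate block, 228 without Control lamb 3 and 193 without slide 3, against 419. In LV they numbered 743 with arrays weighted by quality, against 444. In the interaction they numbered 249 without a block and 788 on same-day arrays, against 463. Probes called between tissues after adjustment in Control lambs ran from 0 to 578 and in CORT lambs from 0 to 48, against 19 and 4. In IVS 163 were higher and 256 lower in CORT, and with cyclic loess 216 and 164. Between tissues 893 were higher and 651 lower in the IVS of Control lambs, and with percentile scaling 557 and 963. In CORT lambs these were 511 and 288, and 308 and 402. In the interaction 238 were positive and 225 negative, and with cyclic loess 269 and 128.

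Whether a number marks the same lamb in both tissues was not settled. Of the 7 same-numbered LV and IVS pairs whose IVS array was on slide 5, 6 had deviations that correlated most with their own number, at up to 0.621, and of the 9 pairs with IVS arrays on slides 3 and 4, 0 did. Between Control and CORT lambs a shared number is only a name, and the own number was highest in 2 of 8 in LV and 1 of 8 in IVS. Under the replicate block EIF4GI was -0.22 in LV and RPL13A 0.44 in IVS, both past the unadjusted threshold, the RPS25 probe at the polyadenylation signal was -0.26 in IVS and past it too, and EIF4GI between tissues was 0.44 and 0.47 (adjusted p = 0.0766 and 0.076 in limma).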
